A study of Mus musculus with 6 samples.

Results

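The V-ATPase, Ragulator and TFEB family genes were followed in mouse spleen cells labelled as effector-memory CD8+ T cells and as positive or negative for S100A4, a small calcium-binding protein. Markers of other cell types were high in both populations and are given before the results. The set was chosen by name: genes whose symbol begins with Atp6v or Atp6ap, Lamtor1 to Lamtor5, the 4 Rag GTPase genes, Flcn, Fnip1, Fnip2, Tfeb, Tfe3, Mitf, Tfec, Mtor, Rptor and Mcoln1, without pseudogenes. It holds 45 of the 55951 genes in the deposited table. The rule reads names and no values, though the members were chosen with earlier results of these data known. RNA was taken from 2 sorted populations of spleen cells of C57BL/6 mice with the genotype S100A4-EGFP, written S100A4WT-EGFP in the protocol, that served as an asthma model induced with OVA, the egg protein ovalbumin. The labels name EGFP+ cells S100A4+ and EGFP- cells S100A4-, list no further treatment and do not say what drives EGFP. The S100A4-positive cells were CD3+CD8+CD4-CD44+CD62L-EGFP+ and the S100A4-negative cells were CD3+CD8+CD4-CD44+CD62L-EGFP-, with 3 libraries each. All 6 libraries carried the reporter and came from the asthma model. Age is not given in the labels used here, nor whether the 3 samples of a population came from separate mice, so a p-value reflects only how much these samples varied, which may be technical.

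The vacuolar ATPase, or V-ATPase, is a rotary proton pump. Its V1 sector hydrolyses ATP in the cytosol and its V0 sector carries protons across the membrane, which acidifies lysosomes and endosomes. On the lysosomal surface the pump binds Ragulator, a scaffold that anchors the Rag GTPases, and these recruit the growth kinase complex mTORC1 when amino acids are plentiful. mTORC1 phosphorylates TFEB and its relatives TFE3 and MITF, transcription factors that switch on genes of lysosomes and autophagy when they enter the nucleus. TFEC belongs to the same family. FLCN with FNIP1 or FNIP2 acts on the Rag proteins and so controls that phosphorylation.

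Levels are FPKM (fragments counted per kilobase of transcript and scaled to the library's total) as the authors deposited them. The libraries held 14925260 to 18660188 reads, recovered from the deposited values. Changes are log2 fold changes of S100A4-positive over S100A4-negative libraries on the log2(FPKM + 1) scale, which understates changes of low genes. Genes with a mean of at least 1 FPKM were tested with limma, and an adjusted p under 0.05, taken over all 13241 genes tested, made a call. Of all tested genes 62.3% were called, 19.0% higher and 43.4% lower, and their median log2 fold change was -0.36. The direction of calls over all genes depended on the scaling: 30.4% of them were higher as deposited, 53.3% after median-of-ratios rescaling, where the median was -0.019, and 42.0% after quantile normalization, where it was -0.16. S100a4 itself was read 9, 25 and 11 times in S100A4-positive libraries and 0, 3 and 1 times in S100A4-negative ones.

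The labelled cell type was checked against its markers. All 12 markers of T and CD8 cells were detected in every library and all 12 were called lower, with a sum of 367 to 522 FPKM in S100A4-positive and 2325 to 2781 FPKM in S100A4-negative libraries. Cd8a itself had 13.6, 22.4 and 31.9 FPKM in S100A4-positive and 187, 85.2 and 139 FPKM in S100A4-negative libraries. Cd4, whose protein the sort excluded, had 42.5, 52.4 and 66.6 FPKM in S100A4-positive and 67.2, 337 and 111 FPKM in S100A4-negative libraries. It was above Cd8a in all 3 S100A4-positive libraries and in S100A4-negative replicate 2. Of 19 markers of monocytes and macrophages 18 were tested and all 18 were called higher, with a sum of 7015 to 7923 FPKM in S100A4-positive and 487 to 689 FPKM in S100A4-negative libraries. The macrophage receptor gene Csf1r had 1271, 965 and 884 FPKM in S100A4-positive and 15.1, 33.8 and 19.0 FPKM in S100A4-negative libraries. Dendritic cell markers were called higher in 6 of 7, with a sum of 354 to 490.0 FPKM in S100A4-positive and 47.3 to 82.8 FPKM in S100A4-negative libraries. Most of that sum was 1 gene, Itgax, with 326, 298 and 405 FPKM in S100A4-positive and 43.6, 36.2 and 51.5 FPKM in S100A4-negative libraries. Markers of B cells, plasma cells and neutrophils were called lower in 8 of 8, 6 of 6 and 9 of 9. The B cell sum was 1503 to 1565 FPKM in S100A4-positive and 7148 to 12531 FPKM in S100A4-negative libraries. The neutrophil sum was 1704, 523 and 410.2 FPKM in S100A4-positive and 4853, 4853 and 3284 FPKM in S100A4-negative libraries. The plasma cell sum was 581, 277 and 281 FPKM in S100A4-positive and 2511, 2649 and 1184 FPKM in S100A4-negative libraries. None of the markers of these 6 cell types was at 0 in a whole group. In S100A4-positive libraries the macrophage sum was the largest, and the T cell sum was below the macrophage and B cell sums in each library. In S100A4-negative libraries the B cell and neutrophil sums both exceeded the T cell sum in each library. Most of the B cell sum was 1 gene, Ighm. It had 1287, 1220 and 1052 FPKM in S100A4-positive and 6612, 11525 and 8658 FPKM in S100A4-negative libraries. In both groups the order of the B and T cell sums rests on that gene. These levels go against the labelled cell type, and the libraries are called by their labels only. S100A4-positive replicate 1, which stood apart with the highest neutrophil and plasma cell sums of its group, was also the highest library for Fnip2, Tfeb, Flcn, Rragc, Mcoln1 and Tcirg1. Its macrophage and B cell sums were the highest of its group as well, while its T cell and dendritic cell sums, 367 and 354 FPKM, were the lowest. This replicate was the highest of its group for 18 of the 37 tested members, and for 43.2% of all tested genes. The markers given here moved with the results below, and their part in them was not tested. In such bulk samples fewer cells of a type and less RNA per cell cannot be told apart.

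Most genes of the set were higher in S100A4-positive libraries. Of the 45 members, 37 reached a mean of at least 1 FPKM and were tested. Among them 28 were called higher, 3 lower and 6 neither way, which is 75.7% higher, against 19.0% of all tested genes. In 29 members every S100A4-positive library lay above every S100A4-negative one, and in 4 every one lay below, where this held for 20.9% and 49.1% of all tested genes. Their median log2 fold change was 0.85, or 1.21 above the median of all tested genes, and 34 of the 37 lay above that median. Tfec, Fnip2 and Mitf rose by more than 3 on the log2 scale, and the other 25 by 0.36 to 2.05. The genes called lower were Rragb, Atp6v0a2 and Atp6v1g2, each a family member with a paralog in the set that was higher or did not pass. The authors' deposited table calls more members higher, 30, and fewer lower, 1 (Rragb). It calls 11.6% of its 28627 genes with a value higher and 7.35% lower. All 28 members called higher here are among its 30, the others being Flcn and Mcoln1.

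**Figure D1:**
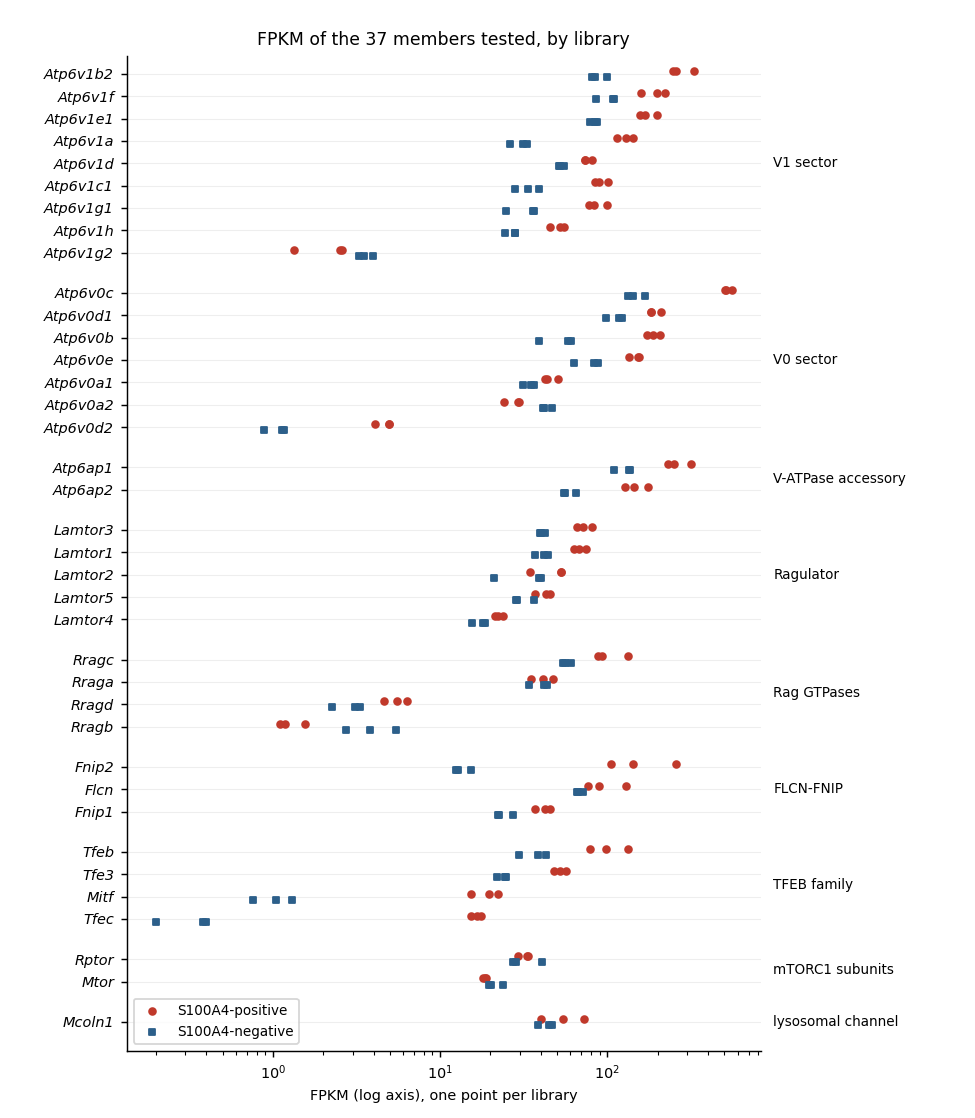
FPKM on a log axis of the 37 members tested, by role, with 1 point per library (circles, S100A4-positive; squares, S100A4-negative). The 2 groups lie apart for most genes of the pump, while those of Rptor, Rraga, Lamtor2 and Mcoln1 overlap; Tfec, Mitf and Fnip2 show the widest gaps.

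**Figure D2:**
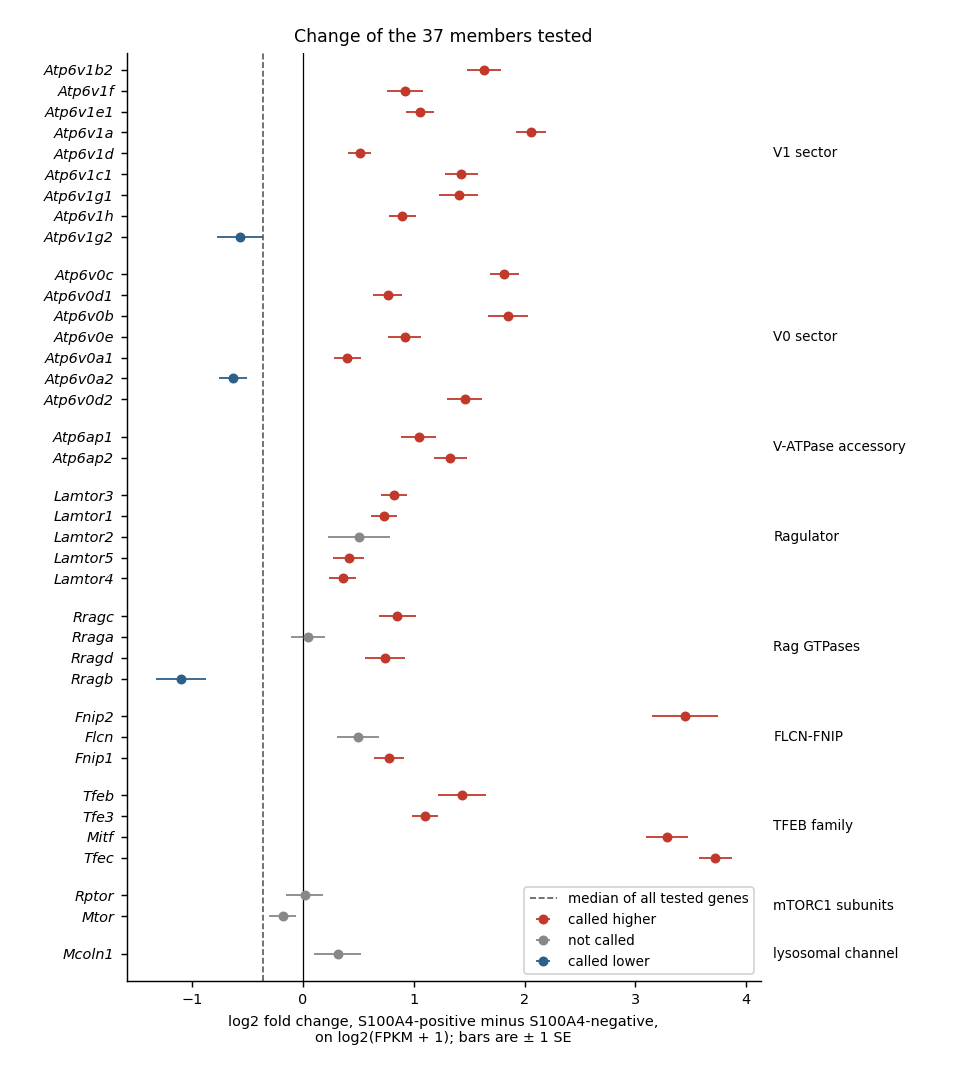
Log2 fold changes of S100A4-positive over S100A4-negative libraries on the log2(FPKM + 1) scale with their SE, coloured by limma call, with the median of all 13241 tested genes (-0.36) as a dashed line. Tfec, Fnip2 and Mitf stand at 3.72, 3.45 and 3.28, and Rragb, Atp6v0a2 and Atp6v1g2 lie left of the dashed line.

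TFEB and its relatives bind E-box motifs with the core CACGTG, so the promoters of the members were searched for it. The windows, from RefSeq on GRCm38.p6, reach from 250 bases before to 50 after an annotated start, and 37 of the 45 members have at least 1; the motif reads the same on both strands. CACGTG occurs in the window of 10 of these 37 genes, or 27.0%, against 8.09% of the 27025 genes in the promoter table and 12.0% of the 9328 tested genes with a window. All 10 windows also hold TCACGTG on either strand, a longer form that contains the core and occurs in 4.29% of the genes in the table. The genes are Atp6v1a, Atp6v0b, Atp6v0d1, Atp6v0e, Lamtor1, Lamtor4, Rragb, Rragc, Fnip1 and Mcoln1. Of members with a window, it is in 8 of 22 called higher, 1 of 2 called lower, 1 of 6 not called and 0 of 7 not tested. Among all tested genes with a window, 12.8% of those called higher hold it, near the 12.0% of them all. A match describes these letters only and is not evidence of binding. The 5 promoters printed here show where the motif lies in the most risen gene of each pump sector among the matches, in a Rag gene that rose and one that fell, and in the lysosomal channel gene. Capitals mark CACGTG.
Atp6v1a (chr16:44139210-44139509, - strand): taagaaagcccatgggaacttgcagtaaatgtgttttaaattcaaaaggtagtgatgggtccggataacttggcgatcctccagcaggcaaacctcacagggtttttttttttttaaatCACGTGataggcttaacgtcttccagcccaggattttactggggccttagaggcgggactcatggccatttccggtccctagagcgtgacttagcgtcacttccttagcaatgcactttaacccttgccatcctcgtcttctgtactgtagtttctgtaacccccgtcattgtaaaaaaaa
Atp6v0b (chr4:117887280-117887579, - strand): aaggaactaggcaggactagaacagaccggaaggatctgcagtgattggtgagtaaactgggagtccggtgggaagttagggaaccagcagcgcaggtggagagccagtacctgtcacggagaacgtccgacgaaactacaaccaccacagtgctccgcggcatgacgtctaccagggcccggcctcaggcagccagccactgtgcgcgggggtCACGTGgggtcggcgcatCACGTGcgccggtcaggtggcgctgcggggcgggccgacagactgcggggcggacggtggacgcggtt
Rragc (chr4:123917183-123917482, + strand): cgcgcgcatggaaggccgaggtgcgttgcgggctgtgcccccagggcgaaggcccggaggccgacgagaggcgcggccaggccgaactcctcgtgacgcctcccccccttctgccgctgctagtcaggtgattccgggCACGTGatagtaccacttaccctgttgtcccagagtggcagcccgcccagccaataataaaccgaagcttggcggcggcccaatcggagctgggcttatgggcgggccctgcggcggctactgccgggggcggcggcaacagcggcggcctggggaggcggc
Rragb (chrX:153139708-153140007, + strand): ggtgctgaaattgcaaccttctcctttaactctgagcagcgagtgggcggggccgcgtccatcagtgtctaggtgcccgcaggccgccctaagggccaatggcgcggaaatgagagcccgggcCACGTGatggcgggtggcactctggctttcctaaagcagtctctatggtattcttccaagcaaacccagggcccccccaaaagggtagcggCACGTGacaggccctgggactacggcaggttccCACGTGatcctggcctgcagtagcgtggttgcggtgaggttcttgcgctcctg
Mcoln1 (chr8:3500269-3500568, + strand): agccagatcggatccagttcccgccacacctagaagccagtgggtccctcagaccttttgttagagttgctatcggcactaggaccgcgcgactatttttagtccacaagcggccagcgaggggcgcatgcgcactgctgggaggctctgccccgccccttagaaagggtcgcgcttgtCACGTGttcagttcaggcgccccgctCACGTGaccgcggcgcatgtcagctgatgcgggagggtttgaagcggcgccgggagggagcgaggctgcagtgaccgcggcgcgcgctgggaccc
Rragb, which was lower, has 3 matches, Mcoln1, Atp6v0b and Lamtor4 have 2 each, and the windows of the members with the largest changes, Tfec, Fnip2 and Mitf, hold none. Counted from the annotated RefSeq start as 1 and the base before it as -1, the motif begins at -131 in Atp6v1a, at -36 and -18 in Atp6v0b and at -112 in Rragc. In Rragb it begins at -127, -36 and -3, and in Mcoln1 at -71 and -45. The remaining matches begin between -120 in Lamtor4 and 4 in Atp6v0e, the only member whose match lies after its RefSeq start. GENCODE starts can differ. There Atp6v1a, on the - strand, begins at 44139705, outside its window, so that its match lies within the gene. Atp6v0e, on the + strand, begins at 26663231 there, before its window, and its match is within the gene too. Mcoln1, on the + strand, begins at 3500457 there, so that its match at -45 is also within the gene. Atp6v1b2, Atp6v1c1, Atp6v1g1, Atp6v1h, Atp6v0a2, Atp6v0d2, Atp6ap1l and Lamtor3 had no window and were not searched.

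The V1 sector, which burns ATP, was higher in nearly all its expressed subunits. Of 13 genes 9 were tested, 8 were called higher and 1 lower, with a median log2 fold change of 1.05. These are 88.9% higher and 11.1% lower, beside 19.0% and 43.4% of all tested genes, whose median was -0.36. The summed FPKM of the sector was 1095, 1098 and 1048 in S100A4-positive libraries and 409, 463 and 486 in S100A4-negative ones. Atp6v1a (ENSMUSG00000052459, chromosome 16, 44085402 to 44139705), the catalytic subunit A, had 142, 129.8 and 114 FPKM in S100A4-positive libraries against 26.2, 31.4 and 33.1 FPKM in S100A4-negative libraries. The groups lay far apart, and its change, 2.05 on the log2 scale (SE 0.14, limma adjusted p = 4.63e-05) was the largest of the pump on this scale; with a pseudocount of 0.1 it was 2.09, and that of Atp6v0d2 2.05. Their ratios of group means were 4.25 for Atp6v1a and 4.41 for Atp6v0d2. Atp6v1b2, the nucleotide-binding subunit B that alternates with A in the head, had the highest V1 level over all 6 libraries, with 331, 246 and 257 FPKM in S100A4-positive libraries and 81.3, 84.8 and 100.1 FPKM in S100A4-negative libraries, where Atp6v1f was higher in each. Its groups did not overlap either, with a change of 1.63 (SE 0.15, limma adjusted p = 1.74e-04).

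The connecting and rotating parts of V1 were also higher. Atp6v1c1, for subunit C, which is released when the sectors come apart, had 100.4, 89.5 and 84.3 FPKM in S100A4-positive and 27.9, 33.6 and 39.0 FPKM in S100A4-negative libraries, a change of 1.43 (SE 0.15, limma adjusted p = 2.46e-04). Every S100A4-positive library lay above every S100A4-negative one. Atp6v1e1 of the peripheral stalk averaged 174 ± 21.5 FPKM in S100A4-positive and 83.2 ± 4.10 FPKM in S100A4-negative libraries (SD, n = 3 each). The rotor genes Atp6v1f and Atp6v1d averaged 192 ± 31.4 and 76.0 ± 3.97 FPKM in S100A4-positive libraries, against 101 ± 13.3 and 53.0 ± 2.09 FPKM in S100A4-negative libraries. Atp6v1h, a regulatory subunit, averaged 50.8 ± 4.91 FPKM in S100A4-positive and 26.8 ± 1.98 FPKM in S100A4-negative libraries. The log2 fold changes of Atp6v1e1, Atp6v1f, Atp6v1h and Atp6v1d were 1.05, 0.92, 0.89 and 0.51, with limma adjusted p from 4.36e-04 to 0.00419, and none of these 4 had overlapping groups. As a ratio of group means, Atp6v1d was 1.43-fold higher. Of the 50-base stretches of Atp6v1f transcripts 11.2% occur in other genes too, so that its level is less certain.

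Subunit G of the peripheral stalk moved in opposite directions by isoform. Atp6v1g1, the widespread form, had 78.0, 82.8 and 99.2 FPKM in S100A4-positive and 24.8, 36.5 and 35.9 FPKM in S100A4-negative libraries (a change of 1.40, SE 0.18, limma adjusted p = 5.78e-04). Of its 50-base stretches 19.2% occur elsewhere, chiefly in the gene Gm13453, which averaged at most 0.467 FPKM in a group. Atp6v1g2, best known from neurons, had 2.50, 2.60 and 1.33 FPKM in S100A4-positive and 3.97, 3.27 and 3.51 FPKM in S100A4-negative libraries, from 46, 42 and 25 reads in S100A4-positive and 73, 63 and 71 reads in S100A4-negative libraries. Its groups were close to each other but did not overlap, and the change of -0.57 (SE 0.21) passed narrowly, with a limma adjusted p of 0.0465. That call was lost after median-of-ratios rescaling and after quantile normalization (limma adjusted p = 0.308 and 0.285), and without S100A4-positive replicate 3 or any of the S100A4-negative replicates 1, 2 and 3 (0.126, 0.123, 0.0753 and 0.0980). It was lost too with a pseudocount of 0.1, without a filter and in both voom fits (limma adjusted p = 0.0546, 0.114, 0.0517 and 0.293). Without S100A4-positive replicate 3 its change was -0.37. Of its exon bases 5.74% also belong to Nfkbil1 on the opposite strand, which averaged 9.75 FPKM in S100A4-positive and 4.93 FPKM in S100A4-negative libraries. Whether reads were counted by strand is not stated. The share of Atp6v1g2 in the summed FPKM of the G genes was 2.49% ± 1.01 in S100A4-positive and 10.3% ± 3.05 in S100A4-negative libraries (SD, n = 3 each).

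The V0 sector, which conducts protons, was also mostly higher. Its 9 genes had 7 tested, with 6 called higher and 1 lower, and a median log2 fold change of 0.92. That is 85.7% higher and 14.3% lower, beside 19.0% and 43.4% of all tested genes. Summed FPKM of V0 was 1156, 1099 and 1128 in S100A4-positive libraries and 412, 505 and 492 in S100A4-negative ones; these sums leave out Tcirg1, the most abundant a subunit gene, which the name rule does not take in. Atp6v0c (ENSMUSG00000024121, chromosome 17, 24163866 to 24169702), the proton-binding subunit that makes up most of the rotating ring, was the most abundant gene of the set, at 554, 504 and 509.5 FPKM in S100A4-positive and 133, 168 and 143 FPKM in S100A4-negative libraries. The S100A4-positive libraries were all above the S100A4-negative ones, by 1.82 on the log2 scale (SE 0.13, limma adjusted p = 6.34e-05). Of the 50-base stretches of Atp6v0c transcripts, 10.8% occur in other genes too, chiefly the pseudogene Atp6v0c-ps2, which averaged 2.83 FPKM in S100A4-positive and 0.795 FPKM in S100A4-negative libraries. Atp6v0b, another ring subunit, whose promoter is printed above, had 173, 187 and 206 FPKM in S100A4-positive and 38.9, 57.7 and 60.7 FPKM in S100A4-negative libraries. This was a change of 1.85 (SE 0.18, limma adjusted p = 2.06e-04) without overlap. Atp6v0e, a small membrane subunit, had 135, 155 and 153 FPKM in S100A4-positive and 63.3, 83.4 and 87.9 FPKM in S100A4-negative libraries, a change of 0.92 (SE 0.15, limma adjusted p = 0.00174).

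Subunit d couples the ring to the V1 rotor and has a general form, Atp6v0d1, and a form known from osteoclasts and macrophages, Atp6v0d2. Atp6v0d1 had 210.2, 182 and 182 FPKM in S100A4-positive and 98.0, 117 and 122 FPKM in S100A4-negative libraries, a change of 0.76 (SE 0.13, limma adjusted p = 0.00210). Atp6v0d2 was low in all libraries, at 4.09, 4.97 and 4.94 FPKM in S100A4-positive and 1.13, 1.16 and 0.883 FPKM in S100A4-negative libraries, from 101, 108 and 125 reads in S100A4-positive and 28, 30 and 24 reads in S100A4-negative libraries. Its groups were well separated, with a change of 1.46 (SE 0.16, limma adjusted p = 2.99e-04), but it made up only 2.41% ± 0.430 of the summed FPKM of subunit d in S100A4-positive and 0.947% ± 0.215 in S100A4-negative libraries. Among markers of osteoclasts, Ctsk and Acp5 were called higher and Mmp9 lower, while Dcstamp, Ocstamp and Oscar were under the filter.

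The a subunit, which forms the proton path and directs the pump to its membrane, differed in its isoform makeup. Tcirg1, which encodes the a3 isoform of lysosomes and osteoclasts and is outside the set by name, had 532, 264 and 329 FPKM in S100A4-positive and 93.7, 86.9 and 97.1 FPKM in S100A4-negative libraries (a change of 1.95, SE 0.24, limma adjusted p = 5.52e-04). Its S100A4-positive replicate 1 was the highest, and all 3 lay above the other group. Atp6v0a1 had 50.6, 42.2 and 43.3 FPKM in S100A4-positive and 31.1, 35.0 and 36.2 FPKM in S100A4-negative libraries, a small rise of 0.40 (SE 0.12, limma adjusted p = 0.0241). This call was lost without S100A4-positive replicate 1, S100A4-negative replicate 1 or S100A4-negative replicate 2 (limma adjusted p = 0.0584, 0.0755 and 0.0535). Atp6v0a2, an isoform best known from the Golgi and endosomes, was lower, with 29.3, 24.1 and 29.6 FPKM in S100A4-positive and 46.6, 42.0 and 41.0 FPKM in S100A4-negative libraries. Its groups did not overlap and the change was -0.63 (SE 0.13, limma adjusted p = 0.00414), or -0.25 and not called after median-of-ratios rescaling (limma adjusted p = 0.110).

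Shares within a library do not depend on how libraries are scaled to each other. Tcirg1 took 82.9% ± 3.64 of the summed FPKM of the 4 a genes in S100A4-positive libraries and 54.5% ± 1.35 in S100A4-negative libraries (SD, n = 3 each). Atp6v0a2 took 6.48% ± 1.48 in S100A4-positive and 25.4% ± 1.84 in S100A4-negative libraries, and Atp6v0a1 took 10.6% ± 2.26 in S100A4-positive and 20.1% ± 1.71 in S100A4-negative libraries, again without overlap. Over the 5 pairs of expressed isoforms in the pump, log2 ratios with a pseudocount of 1 FPKM were compared between groups, S100A4-positive minus S100A4-negative, with the exact permutation test, two-sided. The ratio of Atp6v0a2 to Tcirg1 differed by -2.57 and that of Atp6v0a1 to Atp6v0a2 by 1.03. The differences for Atp6v0a1 to Tcirg1, Atp6v0d1 to Atp6v0d2 and Atp6v1g1 to Atp6v1g2 were -1.55, -0.70 and 1.97, and with a pseudocount of 0.1 that for Atp6v0d1 to Atp6v0d2 was -1.28. All 5 pairs were fully separated with exact p = 0.1 each and 0.1 adjusted over the 5, the smallest that 3 against 3 libraries allow, so none could pass 0.05.

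**Figure D3:**
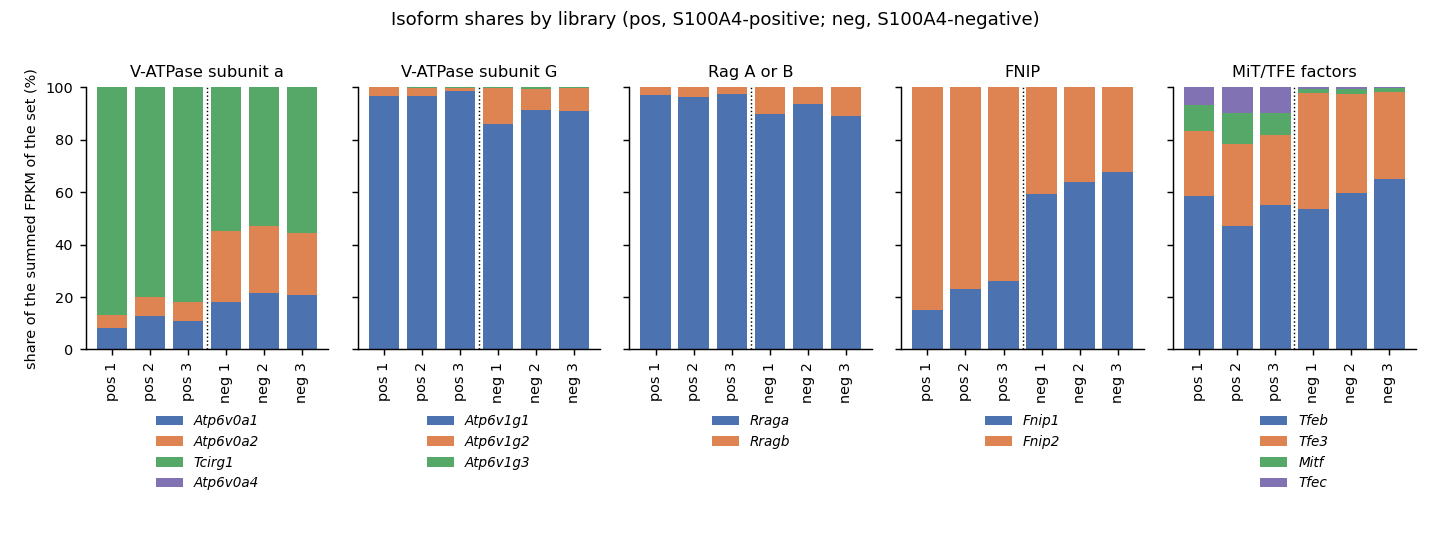
Share of each gene in the summed FPKM of its set, in percent, for each library (pos, S100A4-positive; neg, S100A4-negative). Tcirg1 takes 82.9% of the a subunit genes on average in S100A4-positive and 54.5% in S100A4-negative libraries, and Fnip2 78.7% and 36.2% of the FNIP genes.

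Tissue-restricted subunits were at most barely detected in both groups. Atp6v1b1 and Atp6v0a4, the forms of acid-secreting cells of the kidney and inner ear, and Atp6v1c2, Atp6v1e2, Atp6v1g3 and Atp6v0e2 stayed at or under 0.560 FPKM in every library. Atp6v1fnb, which carries the pump's name only as the neighbour of Atp6v1f, reached at most 0.169 FPKM, and Atp6ap1l was listed at 0 throughout. These 8 genes were not tested.

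Both expressed accessory proteins rose. Atp6ap1, or Ac45, which helps to assemble and steer the pump, had 315, 229 and 250.0 FPKM in S100A4-positive and 110.1, 137 and 134 FPKM in S100A4-negative libraries, a change of 1.05 (SE 0.16, limma adjusted p = 0.00126). Atp6ap2, known also as the prorenin receptor, had 128, 176 and 144 FPKM in S100A4-positive and 54.8, 55.6 and 64.8 FPKM in S100A4-negative libraries, a change of 1.33 (SE 0.15, limma adjusted p = 3.30e-04). Neither had overlapping groups. Genes that assemble or regulate the pump (V-ATPase assembly factors, the RAVE complex and TLDc proteins) were also counted. Of 10 tested, 4 were called higher, 1 lower and 5 neither way. The share called higher was 40.0%, where 19.0% of all tested genes were called higher and 43.4% lower. The median log2 fold change of this list was 0.19, against -0.36 over all tested genes. Rogdi, a RAVE-related subunit, averaged 115 ± 36.8 FPKM in S100A4-positive and 28.8 ± 7.34 FPKM in S100A4-negative libraries (a change of 1.94), and the TLDc genes Ncoa7 and Tbc1d24 changed by 1.58 and 1.10 (limma adjusted p = 7.62e-04, 0.00320 and 0.00779).

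Of the 5 Ragulator genes 4 were called higher, or 80.0%, beside 19.0% of all tested genes. Lamtor1, which tethers the complex to the membrane by its lipid anchor, had 74.4, 67.2 and 63.5 FPKM in S100A4-positive and 36.9, 41.7 and 43.9 FPKM in S100A4-negative libraries, a change of 0.73 (SE 0.12, limma adjusted p = 0.00171). The groups did not overlap, although 18.7% of its exon bases also belong to Lrrc51 on the opposite strand, a gene at 1.88 FPKM in S100A4-positive and 1.30 FPKM in S100A4-negative libraries. Lamtor3, the most abundant of the 5 by its mean over all 6 libraries, had 81.2, 66.1 and 71.6 FPKM in S100A4-positive and 39.5, 40.0 and 42.4 FPKM in S100A4-negative libraries, with a change of 0.82 (SE 0.12, limma adjusted p = 9.08e-04). Its partner Lamtor2, which forms a heterodimer with it, had 34.6, 52.7 and 52.8 FPKM in S100A4-positive and 21.0, 40.0 and 39.1 FPKM in S100A4-negative libraries. The groups overlapped, with replicate 1 the lowest in both, and the change of 0.50 (SE 0.28) did not pass (limma adjusted p = 0.151; 0.0351 after median-of-ratios rescaling and 0.0101 with the replicate number as a block). Without S100A4-negative replicate 1 it was 0.21 (limma adjusted p = 0.422).

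The other Ragulator pair, Lamtor4 and Lamtor5, had the smallest called rises of the complex. Lamtor4 had 22.2, 21.4 and 23.9 FPKM in S100A4-positive and 15.5, 18.6 and 17.9 FPKM in S100A4-negative libraries. Lamtor5 had 36.7, 45.5 and 42.8 FPKM in S100A4-positive and 28.3, 28.8 and 36.3 FPKM in S100A4-negative libraries. In both genes the lowest S100A4-positive library lay above the highest S100A4-negative one, in Lamtor5 barely. Of the 50-base stretches of Lamtor5 14.5% occur elsewhere, chiefly in Gm15190, which averaged 1.02 FPKM in S100A4-positive and 1.68 FPKM in S100A4-negative libraries. The changes were 0.36 (SE 0.12) and 0.41 (SE 0.14), with limma adjusted p of 0.0346 and 0.0384. The call of Lamtor4 was lost without S100A4-positive replicate 1 or 3 or any S100A4-negative replicate, 1, 2 or 3 (limma adjusted p of up to 0.110), and that of Lamtor5 without S100A4-positive replicate 2 or 3 or S100A4-negative replicate 1 or 2 (up to 0.113). BORC, a complex that positions lysosomes and binds Ragulator, had 0 of 7 tested genes called higher and 2 lower, Borcs5 with -0.62 and Borcs8 with -0.55 (limma adjusted p = 0.00423 and 0.00735). Its share called lower, 28.6%, was below the 43.4% of all tested genes, and its median of -0.13 was above their -0.36.

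The Rag GTPases work as pairs of RagA or RagB with RagC or RagD, and the paralogs RagA and RagB differed. Rraga, which encodes RagA, had 35.1, 41.1 and 47.4 FPKM in S100A4-positive and 34.0, 41.8 and 43.4 FPKM in S100A4-negative libraries. The groups overlapped and the change of 0.05 (SE 0.15) did not pass (limma adjusted p = 0.798), though after median-of-ratios rescaling it was 0.43 and called (0.0456). Rragb (ENSMUSG00000041658, chromosome X, 153139981 to 153171943), its paralog, was lower, at 1.10, 1.55 and 1.19 FPKM in S100A4-positive and 3.83, 2.75 and 5.42 FPKM in S100A4-negative libraries, from 29, 36 and 32 reads in S100A4-positive and 101, 76 and 157 reads in S100A4-negative libraries. The groups did not overlap, and the change of -1.10 (SE 0.23, limma adjusted p = 0.00456) was called in all 15 alternatives in which the gene was tested. Rragb took 3.04% ± 0.597 of the summed FPKM of the pair in S100A4-positive and 9.13% ± 2.61 in S100A4-negative libraries.

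Rragc and Rragd both rose. Rragc, the more abundant paralog, had 132, 88.3 and 93.3 FPKM in S100A4-positive and 55.6, 54.0 and 60.4 FPKM in S100A4-negative libraries, a change of 0.85 (SE 0.17, limma adjusted p = 0.00382), or 0.67 without S100A4-positive replicate 1 (limma adjusted p = 0.00292). Rragd, a known target of the TFEB family, had 5.53, 6.31 and 4.64 FPKM in S100A4-positive and 2.24, 3.11 and 3.33 FPKM in S100A4-negative libraries, a change of 0.74 (SE 0.18, limma adjusted p = 0.00975). Both genes had separate groups, and the share of Rragd within the pair, 5.14% ± 1.38 in S100A4-positive and 4.85% ± 0.850 in S100A4-negative libraries, overlapped between them.

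Fnip2 had the largest change among the FLCN-FNIP genes. It (ENSMUSG00000061175, chromosome 3, 79455974 to 79567796) had 259, 142 and 106 FPKM in S100A4-positive libraries against 15.3, 12.5 and 12.9 FPKM in S100A4-negative libraries. The S100A4-positive libraries varied among themselves, with replicate 1 the highest, yet the lowest of them was far above the other group. The change was 3.45 on the log2 scale (SE 0.30, limma adjusted p = 1.26e-04), and 3.09 without S100A4-positive replicate 1 (limma adjusted p = 6.69e-05). Fnip1, the paralog, had 45.6, 42.4 and 37.1 FPKM in S100A4-positive and 22.5, 22.2 and 27.2 FPKM in S100A4-negative libraries, a smaller change of 0.77 (SE 0.13, limma adjusted p = 0.00217). Fnip2 took 78.7% ± 5.70 of their summed FPKM in S100A4-positive and 36.2% ± 4.19 in S100A4-negative libraries, so that the more abundant of the paralogs was Fnip2 in the S100A4-positive and Fnip1 in the S100A4-negative libraries.

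Flcn, which encodes folliculin, the partner of both, had 129, 76.6 and 89.3 FPKM in S100A4-positive and 65.6, 66.4 and 71.6 FPKM in S100A4-negative libraries. The groups did not overlap, but the S100A4-positive libraries spread widely and the change of 0.50 (SE 0.19) missed the threshold (limma adjusted p = 0.0540). It was called without S100A4-positive replicate 2 (0.66, limma adjusted p = 0.0237) and after median-of-ratios rescaling (0.88, 0.00562), while without S100A4-positive replicate 1 the change was 0.28 (limma adjusted p = 0.0826). The authors' deposited table calls it higher, at 0.92 on the log2 scale with an adjusted p of 0.00950.

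All 4 TFEB family genes were called higher, beside 19.0% of all tested genes. Tfeb (ENSMUSG00000023990, chromosome 17, 47737030 to 47792419), the most abundant of them, had 133, 78.4 and 98.5 FPKM in S100A4-positive and 29.7, 38.4 and 43.2 FPKM in S100A4-negative libraries, a change of 1.44 (SE 0.22, limma adjusted p = 0.00127). Without S100A4-positive replicate 1 it was 1.24 (limma adjusted p = 0.00194). Tfe3, which acts alongside TFEB in many tissues, had 56.4, 52.0 and 47.7 FPKM in S100A4-positive and 24.7, 24.4 and 21.8 FPKM in S100A4-negative libraries, with little spread and a change of 1.11 (SE 0.12, limma adjusted p = 2.69e-04). Neither gene had overlapping groups.

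Mitf and Tfec were at moderate levels in S100A4-positive libraries and close to 0 in S100A4-negative ones. Mitf, the family member of melanocytes, mast cells and osteoclasts, had 22.0, 19.5 and 15.2 FPKM in S100A4-positive and 0.763, 1.30 and 1.04 FPKM in S100A4-negative libraries, a change of 3.28 (SE 0.19, limma adjusted p = 2.75e-05). Its reads were 807, 629 and 570 in S100A4-positive and 28, 50 and 42 in S100A4-negative libraries. Over the alternatives the change of Mitf ranged from 3.11 to 4.57, and the authors' deposited table gives 4.58. Tfec (ENSMUSG00000029553, chromosome 6, 16833373 to 16898441), a form largely restricted to macrophages, had 15.4, 16.5 and 17.5 FPKM in S100A4-positive and 0.401, 0.383 and 0.199 FPKM in S100A4-negative libraries, from 421, 399 and 491 reads in S100A4-positive and 11, 11 and 6 reads in S100A4-negative libraries. Its change of 3.72 (SE 0.15, limma adjusted p = 8.72e-06) was the largest of the set. It depends on the pseudocount, being 5.31 with 0.1 and 6.04 with voom and size factors, beside 6.03 in the authors' deposited table. The macrophage marker sum beside these genes was 7015 to 7923 FPKM in S100A4-positive and 487 to 689 FPKM in S100A4-negative libraries, and all 18 tested markers were higher. Of the summed FPKM of the family, Mitf and Tfec took 9.97% ± 1.63 and 8.83% ± 1.79 in S100A4-positive libraries, against 1.65% ± 0.331 and 0.538% ± 0.216 in S100A4-negative libraries. Tfeb took 53.6% ± 5.92 in S100A4-positive and 59.4% ± 5.88 in S100A4-negative libraries, with overlap, and had the largest mean share in both.

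Neither mTORC1 gene of the set passed the test. Mtor, the kinase itself, had 18.5, 18.1 and 18.9 FPKM in S100A4-positive and 19.6, 20.2 and 23.8 FPKM in S100A4-negative libraries. The S100A4-positive libraries were all slightly below the others, but the change of -0.18 (SE 0.12) did not pass (limma adjusted p = 0.222), and its sign turned after median-of-ratios rescaling (0.19) and quantile normalization (0.05). Rptor, which encodes the substrate-binding subunit Raptor, had 33.2, 33.6 and 29.3 FPKM in S100A4-positive and 40.6, 27.4 and 28.3 FPKM in S100A4-negative libraries, with overlapping groups and a change of 0.02 (SE 0.17, limma adjusted p = 0.938). The sign of Rptor turned without S100A4-positive replicate 1 or 2 or S100A4-negative replicate 2 or 3 (down to -0.083). Among 12 other genes of mTORC1 and of its upstream GTPase Rheb, 2 were called higher and 5 lower, near the 19.0% and 43.4% of all tested genes, with a median of -0.37 against -0.36. Deptor, an inhibitor of mTOR, averaged 3.95 ± 0.590 FPKM in S100A4-positive and 0.414 ± 0.135 FPKM in S100A4-negative libraries (1.80), and Eif4ebp1, a translation repressor that mTORC1 phosphorylates, averaged 46.5 ± 5.87 FPKM in S100A4-positive and 16.3 ± 1.62 FPKM in S100A4-negative libraries (1.46). Rhebl1, a Rheb-like GTPase, changed by -1.20; limma adjusted p for the 3 genes were 1.88e-04, 1.74e-04 and 0.00813.

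Of the genes that carry the amino acid signal to the Rag GTPases more were called lower than higher. Of 17 tested genes of GATOR1, GATOR2, KICSTOR and the sensors, 11 were called lower, or 64.7%, and 2 higher, where 43.4% of all tested genes were called lower. The median was -0.48, against -0.36 over all tested genes, whose split by direction depends on the scaling. Sesn3, whose protein is one of the sestrins that bind GATOR2, averaged 31.4 ± 3.68 FPKM in S100A4-positive and 151 ± 11.9 FPKM in S100A4-negative libraries (a change of -2.24, limma adjusted p = 2.64e-05). Itfg2 of KICSTOR and Sesn1 changed by -1.36 and -1.16 (limma adjusted p = 1.35e-04 and 0.00120).

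Mcoln1, the lysosomal channel whose calcium release activates calcineurin, the phosphatase of TFEB, had 72.3, 39.8 and 53.9 FPKM in S100A4-positive and 44.9, 38.3 and 46.5 FPKM in S100A4-negative libraries. S100A4-positive replicate 1 was the highest and replicate 2 lay within the other group, and the change of 0.31 (SE 0.21) did not pass (limma adjusted p = 0.230). Without S100A4-positive replicate 2 it was 0.52 and called (0.0415), and after median-of-ratios rescaling 0.69 (0.0208), while without S100A4-positive replicate 1 it was 0.10 (limma adjusted p = 0.609). Mcoln1 is called higher in the authors' deposited table, at 0.74 with an adjusted p of 0.0497. Of 10 other lysosomal channels and carriers, 4 were called higher, 1 lower and 5 neither way. The share called higher was 40.0%, beside 19.0% of all tested genes, of which 43.4% were called lower. The median log2 fold change of these channels and carriers was 0.29, against -0.36 over all tested genes. Slc15a3, a peptide and histidine carrier, averaged 322 ± 47.7 FPKM in S100A4-positive and 25.2 ± 11.3 FPKM in S100A4-negative libraries (3.71), and Clcn7, the chloride-proton exchanger that balances the pump's charge, averaged 82.1 ± 15.4 FPKM in S100A4-positive and 20.3 ± 1.68 FPKM in S100A4-negative libraries (1.95). Slc15a4, of the same carrier family as Slc15a3, rose by 1.41; limma adjusted p for the 3 were 1.01e-04, 8.55e-05 and 0.00102.

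Known targets and regulators of TFEB were counted beside it. Of 19 lysosomal genes of the TFEB target network, Mcoln1 among them, 15 were called higher and 1 lower, a median of 1.49. These are 78.9% higher and 5.26% lower, beside 19.0% and 43.4% of all tested genes. Ctsb, a cathepsin, and Psap, the precursor of the saposins, changed by 3.68 and 3.43, and Hexa, a hexosaminidase subunit, by 2.55 (limma adjusted p = 4.51e-05, 4.67e-05 and 4.20e-05). Of 11 tested autophagy genes of that network, 5 were called higher, or 45.5%, and 2 lower, or 18.2%. They were led by the cargo receptor gene Sqstm1 with 1.89, Gabarapl1 with 1.49 and Gabarap with 1.30 (limma adjusted p = 1.55e-04, 8.03e-05 and 1.42e-04). Of 13 genes for kinases, calcineurin subunits and 14-3-3 proteins that act on TFEB, 4 were called higher, or 30.8%, and 5 lower, or 38.5%, beside 19.0% and 43.4% of all tested genes. Ppp3cc, a catalytic calcineurin subunit, changed by -1.83, Ywhag, a 14-3-3 protein gene, by 1.25, and Mapk3, which encodes the kinase ERK1, by 1.12 (limma adjusted p = 3.79e-04, 0.00167 and 9.59e-04). The part of the macrophage markers, all 18 of which were higher, in these counts was not tested.

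**Figure D4:**
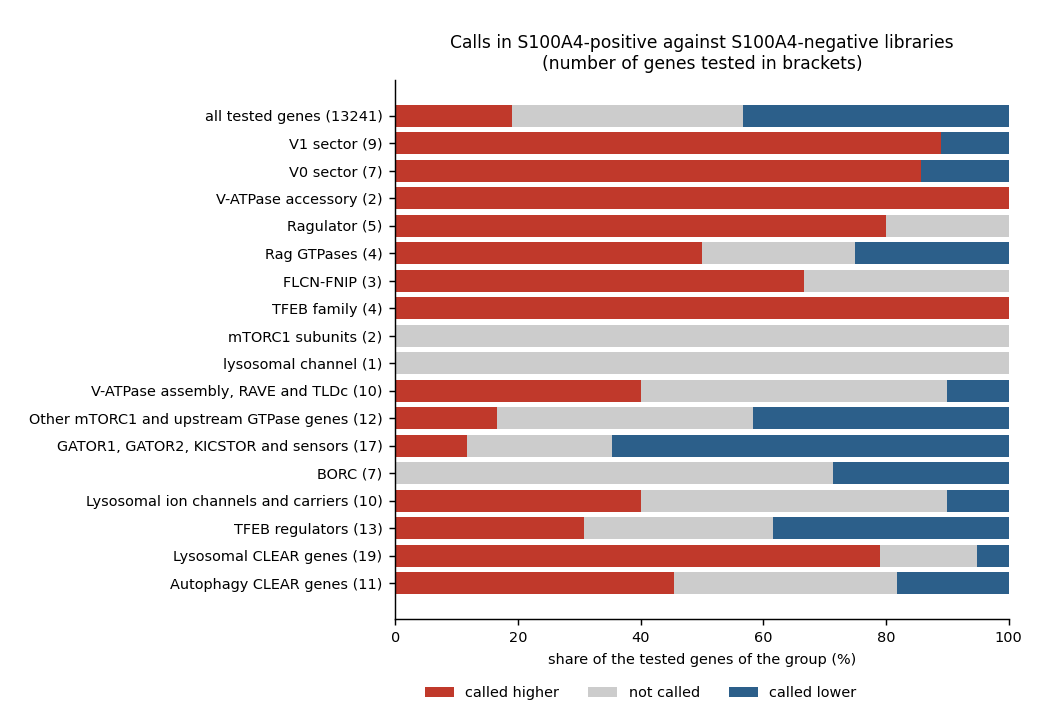
Share of tested genes called higher, not called or called lower in S100A4-positive against S100A4-negative libraries, in percent, for all tested genes, for the roles within the set and for lists of other pathway genes, with the number tested in brackets. Pump, Ragulator and TFEB family genes are mostly called higher, mTORC1 subunits have no call, and 11 of 17 amino acid sensing genes are called lower.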

How the data were processed

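Poly-A selected RNA of 6 sorted samples was sequenced, per the labels' protocols. The submitters' processing notes list HISAT2 2.1.0, Cufflinks and Cuffnorm and the build mm10, with no roles. The authors deposited FPKM per gene and library, and a table of their own comparison. Per the file headers that table holds, for every gene, a signal (normalized reads averaged over a group), the log2 of the fold change, and p-values before and after adjustment; its test is not given in the sources used here. Reads per gene were recovered by combining both tables: all 135018 values above 0 came within 0.02 of a whole read.

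The main test was limma (version 3.58.1, R 4.3.3) fitted to log2(FPKM + 1), trended prior variance, Benjamini-Hochberg adjustment, genes with a mean of at least 1 FPKM. The steps were tested on simulated data. For the limma fit 200 genes were changed there, while 62.3% of the tested genes were called in these data. The simulation therefore does not vouch for these calls. Exact permutation tests used scipy 1.17.1. Coordinates and exon overlaps are from GENCODE M21 (GRCm38, the build mm10 names), and promoters from RefSeq (GRCm38.p6). Every member is named; values per library are given, per role, for the called members that changed most (up to 4), the most abundant member and expressed isoform pairs, and lists name up to 3 called genes. Lamtor2, Rraga and Flcn were given per library, and Csf1r, Cd8a, Cd4, the osteoclast markers and genes that share sequence with members named, after their values were seen. Members and lists were chosen with earlier results of these data known. Alternatives were another pseudocount, 2 other filters, 2 rescalings, limma without trend, array weights, a replicate block, voom on recovered reads and leaving out each library.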

Additional observations from a re-analysis of the deposited data

How the results depend on the processing

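Of the 37 tested members, 26 kept their direction and their side of the threshold in each of the 16 alternatives in which they were tested; Atp6v1g2, Atp6v0d2, Rragb and Rragd fell under the filter of 5. The count of members called higher ranged from 25 to 32 and of those called lower from 1 to 3. Only 1 member was called lower with the filter of 5, after median-of-ratios rescaling and with voom and size factors. The last 2 also gave 3217 and 3156 genes called lower of all tested, in place of 5741. Without a filter the members' median exceeded that of all genes by 0.81, in place of 1.21. Mtor turned positive after median-of-ratios rescaling (0.19), quantile normalization (0.054) and voom with size factors (0.20). Leaving out each library in turn, Rraga ranged from -0.058 to 0.16 and Rptor from -0.083 to 0.19; members called higher ranged from 25 to 29 and lower from 2 to 3. The cause of these shifts was not tested. Same-numbered libraries deviated together with correlations of 0.376, 0.0830 and 0.366. S100A4-positive replicate 2 correlated better with S100A4-negative replicate 3 (0.146), and the other differently numbered libraries ranged from -0.379 to 0.00071. These values do not settle whether the numbers mark pairs, and the main test left them unpaired. With the replicate block 30 members were called higher and 3 lower, Lamtor2 and Flcn being added. Depth limits Rragb, Atp6v1g2, Atp6v0d2, Mitf and Tfec, which rest on few reads in at least 1 group. Leaving out a library also lost the calls of Atp6v1g2, Atp6v0a1, Lamtor4 and Lamtor5.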
